A study of Arabidopsis thaliana with 5 samples.

Results

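Small nucleolar RNA (snoRNA) genes were taken as every gene annotated with the snoRNA biotype on the 5 nuclear chromosomes of Arabidopsis thaliana, 287 of 37899 nuclear genes. Their reads were counted in 5 libraries from unopened flower buds, 1 library per condition: a dsRNA-seq library of rdr6 mutant plants (the rdr6-11 allele) made with 1 round of rRNA depletion, dsRNA-seq libraries of wild-type Col-0 with 2 rounds (2X) or 1 round (1X), and smRNA-seq libraries of rdr6 and Col-0. All plants were of the Col-0 ecotype. RDR6 is an RNA-dependent RNA polymerase that copies transcripts into double-stranded RNA. In dsRNA-seq, RNA depleted of rRNA was digested with a ribonuclease that cuts single strands, and what remained was fragmented and sequenced, whereas smRNA-seq reads small RNAs as they occur in the cell. The RNA for dsRNA-seq was pooled from biological replicates before sequencing, so no condition has a replicate library and no difference below has a replicate check.

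snoRNAs guide chemical modification of ribosomal and spliceosomal RNA by base pairing with it. C/D box snoRNAs direct ribose methylation and carry a C box near the 5′ end and a D box near the 3′ end, which come together in a kink-turn bound by proteins such as fibrillarin. H/ACA box snoRNAs direct pseudouridylation, fold into hairpins and end shortly after an ACA, and U3, an unusual C/D RNA, is needed for cutting of the rRNA precursor. Plant snoRNA genes often lie in clusters that are transcribed together, or in introns, and the mature RNA is trimmed from the longer transcript.

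The 287 genes were spread over chromosome 1 (89 genes), 2 (46), 3 (47), 4 (44) and 5 (61). Their annotated length ran from 19 to 702 bases with a median of 92 bases. In all, 214 genes lay in 70 clusters of up to 6 genes on 1 strand with at most 500 bases between neighbours, and 73 stood alone. Of all members, 137 lay between genes, 46 in an intron and 25 in an exon of a protein-coding gene, 56 within another gene on the same strand and 23 opposite a gene. By sequence, 123 were C/D-like, 67 were H/ACA-like and 97 were neither. The C/D rule asked for TGATGA in the 30 bases at the 5′ end, or in the first 1/3 of the gene if longer. It also asked for CTGA in the 30 bases at the 3′ end. The H/ACA rule asked for an ACA 3 bases from the end (within 2 bases). In 10 members the class came from the annotation. Among windows of 92 bases across the genome on both strands, the C/D rule matched 0.149% and the H/ACA rule 9.15%, so the second rule is loose. TGATGA stood anywhere in 49.8% of the members against 5.01% of the windows, and CTGA in 81.5% against 25.6%. A match is a description of letters and was not tested as a box.

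The following members carry the results on dsRNA-seq reads. Each is printed 5′ to 3′ as annotated on TAIR10.1, with the letters matched by the C/D rule, or the ACA, in capitals. AtsnoR43.1 (chr1:2111064-2111147, minus strand) is the member with most sense reads, AT2G05765 (chr2:2184567-2184645, minus) and AT2G17295 (chr2:7520942-7521021, plus) are near copies of each other, and snoR151 (chr4:9715045-9715195, minus) and AtU65-2 (chr2:2184672-2184820, minus) stand for the H/ACA-like members.
AtsnoR43.1: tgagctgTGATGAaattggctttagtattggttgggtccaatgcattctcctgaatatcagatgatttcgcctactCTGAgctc
AT2G05765: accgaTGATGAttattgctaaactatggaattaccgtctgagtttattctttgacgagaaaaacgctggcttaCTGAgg
AT2G17295: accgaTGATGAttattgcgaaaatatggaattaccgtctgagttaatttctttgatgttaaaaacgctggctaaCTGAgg
snoR151: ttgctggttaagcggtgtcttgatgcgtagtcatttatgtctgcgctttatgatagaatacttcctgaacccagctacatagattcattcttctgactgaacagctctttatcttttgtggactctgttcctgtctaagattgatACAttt
AtU65-2: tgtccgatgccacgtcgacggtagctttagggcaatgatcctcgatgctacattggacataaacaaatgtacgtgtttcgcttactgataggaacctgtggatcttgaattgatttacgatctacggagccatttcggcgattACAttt

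The most frequent read of several members is shown next in capitals, within the gene and 3 bases on each side, because where reads begin separated the libraries more sharply than total counts. Reads were at most 38 nt long, so the last base of a 38 nt read need not be an end of the RNA. In the 1X dsRNA library these reads began at or 1 base before the annotated start of AT3G47347 (chr3:17445810-17445886, plus), snoR149 (AT2G08765, chr2:15029575-15029654, minus) and snoR119 (AT5G00760, chr5:146303-146377, minus, in an intron of AT5G01350).
AT3G47347: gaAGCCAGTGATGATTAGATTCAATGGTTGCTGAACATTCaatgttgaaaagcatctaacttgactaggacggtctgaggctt
snoR149: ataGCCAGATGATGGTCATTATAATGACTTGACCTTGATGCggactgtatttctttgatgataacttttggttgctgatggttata
snoR119: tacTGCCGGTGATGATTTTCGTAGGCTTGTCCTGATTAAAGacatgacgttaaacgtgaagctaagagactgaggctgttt
In Col-0 smRNA the most frequent reads of AT2G05765, AtsnoR66 (AT3G03425, chr3:5830166-5830231, minus) and AT2G35744 (chr2:15029712-15029790, minus) came from the 3′ part of the RNA.
AT2G05765: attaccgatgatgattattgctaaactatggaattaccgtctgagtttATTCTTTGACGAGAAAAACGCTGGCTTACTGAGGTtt
AtsnoR66: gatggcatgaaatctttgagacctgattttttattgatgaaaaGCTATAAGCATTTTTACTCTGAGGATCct
AT2G35744: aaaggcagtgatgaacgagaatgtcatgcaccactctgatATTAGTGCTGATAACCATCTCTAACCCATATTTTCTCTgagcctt
The fragments that lead the highest ratios of rdr6 to Col-0 and of 2X to 1X dsRNA lay at the 3′ end of AT1G32385 (chr1:11685060-11685144, plus) and of AT4G39361 (chr4:18304891-18305010, plus).
AT1G32385: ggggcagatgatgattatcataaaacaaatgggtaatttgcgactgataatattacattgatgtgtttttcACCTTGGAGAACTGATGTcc
AT4G39361: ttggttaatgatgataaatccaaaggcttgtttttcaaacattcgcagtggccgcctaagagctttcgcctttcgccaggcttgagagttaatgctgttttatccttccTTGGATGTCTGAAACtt

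The libraries held 8193747 (rdr6 dsRNA), 13773151 (Col-0 2X dsRNA), 10294611 (Col-0 1X dsRNA), 11123274 (rdr6 smRNA) and 10674768 (Col-0 smRNA) mapped reads. RDR6 itself (AT3G49500) had 10, 80, 20, 6 and 1 sense reads in the same order. These counts are too low to check the mutant. The 3′ adaptor given for the 2X library was 3 bases longer than that of the other libraries, and its shortest read was 15 nt against 17 nt elsewhere. The rounds of depletion and this difference in library preparation cannot be told apart in any ratio of 2X to 1X.

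snoRNA genes took 1.305% of mapped reads in rdr6 dsRNA (95% Wilson interval 1.298 to 1.313%), 1.365% in Col-0 2X (1.358 to 1.371%) and 2.74% in Col-0 1X (2.73 to 2.75%). In smRNA they took 0.0962% in rdr6 (0.0944 to 0.098%) and 0.183% in Col-0 (0.180 to 0.186%). These intervals, like all intervals below, cover counting error only, since PCR copies are not independent molecules. Most members were seen: 275, 279 and 278 had a sense read in the 3 dsRNA libraries and 247 and 261 in rdr6 and Col-0 smRNA. The median member had 173, 322 and 294 sense reads in rdr6, 2X and 1X dsRNA, against 11 and 21 in rdr6 and Col-0 smRNA. The 10 members with most reads held between 36.4% (rdr6 dsRNA) and 48.9% (rdr6 smRNA) of all sense reads in a library. In 6 members no sense read was found in any library, namely AtsnoR155a, AT1G07702, snoR157, AtsnoR93, AT3G14475 and AtsnoR107. In the 1X library this allows up to 0.291 RPM (reads for every 1000000 mapped reads). A further 9 members had no sense read that maps to 1 location.

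Nearly all reads came from the gene strand. Sense and antisense reads numbered 138493 and 796 in rdr6 dsRNA, 237955 and 7556 in 2X, 372745 and 244 in 1X, 11721 and 1082 in rdr6 smRNA and 21791 and 920 in Col-0 smRNA. The log2 ratio of sense to antisense was 7.44, 4.98 and 10.58 in the dsRNA libraries and 3.44 and 4.57 in the smRNA libraries. With reads of 1 location it was 8.51, 10.92 and 10.89 in dsRNA and 3.53 and 4.82 in smRNA, so the low value of the 2X library came with reads that map to several places.

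Levels of different members spanned several orders of magnitude. AtsnoR43.1 (AT1G04527) had 9721 sense reads in rdr6, 4377 in 2X and 33613 in 1X dsRNA, and 725 and 865 in rdr6 and Col-0 smRNA. Only 538, 2039, 1203, 24 and 45 of these map to 1 location, and its 5′ sequence recurs with 2 mismatches in 37 bases in AtsnoR43.2 (AT1G04517) and 3 in AtsnoR43.10 (AT1G06667). The 12 genes named AtsnoR43.1 to AtsnoR43.12 ranged from 29 to 33613 sense reads in 1X, with a median of 2999.5. The split of reads among near copies is uncertain, since the alignment allowed mismatches and listed a read at every copy. snoR149, whose reads all map to 1 location, had 2690, 1004 and 14174 sense reads in rdr6, 2X and 1X dsRNA and 14 and 55 in rdr6 and Col-0 smRNA. It is the member with most reads of 1 location in 1X.

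The U3 genes had a different profile. U3D (AT5G54075) had 5008, 29010 and 11144 sense reads in rdr6, 2X and 1X dsRNA, none of them of 1 location. U3B (AT5G53902), annotated with 702 bases, had 4424, 24266 and 9354, of which 760, 5730 and 2224 map to 1 location. U3 is thus the member pair with most reads in 2X, whereas the AtsnoR43 genes lead in rdr6 and in 1X. The C/D-like and H/ACA-like members had near medians in dsRNA (24.04 and 17.33 RPM in rdr6, 27.37 and 24.98 in 2X, 34.97 and 26.32 in 1X), although H/ACA-like genes are longer (median 138 against 87 bases). In smRNA the medians were 1.89 and 0.180 RPM in rdr6 and 2.904 and 0.468 in Col-0, so C/D-like members stood above H/ACA-like members there. The H/ACA-like medians rest on few reads, since 3 reads amount to 0.270 RPM in rdr6 and 0.281 RPM in Col-0 smRNA. Across members, levels in rdr6 and in 1X dsRNA had a Spearman correlation of 0.93 (267 genes), 2X and 1X of 0.73 (273), rdr6 and Col-0 smRNA of 0.92 (216), and Col-0 smRNA and 1X dsRNA of 0.68 (265). These are descriptions across genes, many of which share reads.

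**Figure D1:**
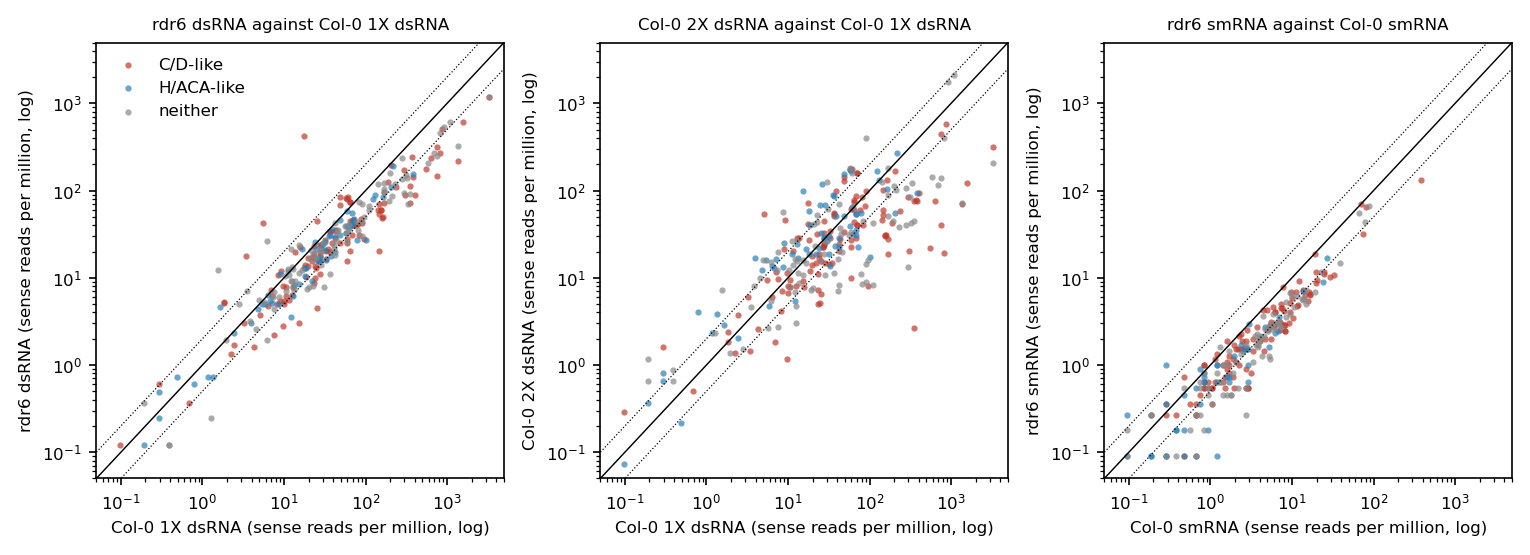
Sense RPM of each snoRNA gene in rdr6 against Col-0 1X dsRNA (left), Col-0 2X against 1X dsRNA (middle) and rdr6 against Col-0 smRNA (right), on log axes, coloured by sequence class. The solid line marks equal levels and the dotted lines a 2-fold difference. Genes that lack a read in 1 or both libraries of a panel are not drawn (12, 10 and 46). Most points of the left and right panels lie below the solid line, and the points of the middle panel spread widest at high 1X levels.

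The comparison of rdr6 with wild-type Col-0 asks which RNAs depend on RDR6 for their double strands. After 1 round of depletion, snoRNA genes were mostly lower in rdr6 dsRNA: 75 of the 267 members tested were at least 2-fold lower and 9 at least 2-fold higher (exact one-sided Audic–Claverie p under 0.001, unadjusted, at least 10 reads in both libraries together). Over all 20848 genes tested, 5.25% were called lower and 14.2% higher. The median log2 ratio of rdr6 to Col-0 was -0.67, with 230 members below 0 and 37 above, against 0.33 over all genes. Other structured RNA genes were low as well, with medians of -0.59 over 45 snRNA genes and -2.19 over 625 tRNA genes. The test compares these libraries, not the genotypes. With reads of 1 location, 64 members were lower and 6 higher of 244 (1.96% and 8.09% over all genes), and 58 of the 75 and 6 of the 9 were called again in the same direction.

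Scaling and the way of counting set how many members pass. Scaled by the median of ratios over all genes, which moves every log2 ratio by 0.33, 129 members were lower and 5 higher, with a median of -1.0 (7.08% and 9.69% over all genes). With the 2X library as the Col-0 reference in place of 1X, an alternative chosen after seeing the data, 69 members were lower and 52 higher, with a median of -0.31 (13.8% and 18.6% over all genes). With each sequence counted once whatever its number of copies, 28 members were lower and 4 higher, with a median of -0.59 (6.71% and 1.26% over all genes). Of the Col-0 dsRNA libraries 1X had the larger share of snoRNA reads, and it is the only Col-0 library with the same number of rounds and the same adaptor as rdr6. The read lengths of rdr6 and 1X still differed, with 38 nt reads at 26.04% and 46.49% of all mapped reads. The median decrease in rdr6 was smaller with reads of at least 30 nt and larger with reads under 38 nt, as listed in the last section.

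The largest decreases among members with at least 100 reads in both libraries together were in 4 C/D-like genes. AT1G75166 had 166 sense reads in rdr6 against 1509 in 1X (log2 -2.86, exact 95% counting interval -3.10 to -2.62). AT3G47347 had 1772 against 14007 (log2 -2.65, -2.73 to -2.58), AT2G35742 had 37 against 259 (log2 -2.48, -3.02 to -1.98), and AT2G35744 had 1208 against 7807 (log2 -2.36, -2.45 to -2.28). Among the members with most reads, snoR149 was at -2.07 (-2.13 to -2.01) and AtsnoR43.1 at -1.46 (-1.49 to -1.43). AtsnoR43.1 was at -0.83 in reads of 1 location and was not called. snoR119 had 2236 against 8490 reads (log2 -1.60) and the near copies AT2G05765 and AT2G17295 had 1436 against 5757 and 589 against 3654 (log2 -1.67 and -2.30). In reads of 1 location these 2 genes were at -0.99 and -1.87, and neither was called. AtsnoR4a (AT1G06237), in the cluster at chr1:10300351-10301021, had 4151 against 8989 and missed the 2-fold limit (log2 -0.79). U3D and U3B, at -0.82 and -0.75, missed it too.

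By class, 41 of 118 C/D-like members were lower and 5 higher (median log2 -0.79), 9 of 62 H/ACA-like members were lower and 1 higher (-0.57), and 25 of 87 others were lower and 3 higher (-0.69). The H/ACA-like snoR151, in an intron of AT4G17390, had 1264 reads in rdr6 against 3885 in 1X (log2 -1.29), whereas AtU65-2 had 1586 against 2245 (log2 -0.17), below the limit for a call. By genomic setting, 45 of 132 members between genes were lower (median log2 -0.70), 18 of 54 within another gene on the same strand (-0.70), 7 of 42 in introns (-0.67), 2 of 21 in exons (-0.62) and 3 of 18 opposite a gene (-0.69). The medians lay close together, whereas the shares called did not. Levels differed between settings too, with median 1X levels of 31.47 RPM between genes and 18.46 RPM in exons, and their part in the calls was not tested.

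A few members ran the other way. AT1G32385 had 3489 sense reads in rdr6, 577 in 2X and 182 in 1X, of which 3247, 513 and 166 map to 1 location. Its log2 ratio of rdr6 to 1X was 4.59 (4.37 to 4.81), the highest of the members named, and 1561 of the rdr6 reads were a single 18 nt fragment from base 69 to 1 base past the annotated end, shown above, against 226 in 2X and 67 in 1X. AtsnoR148 (AT5G06305) had 351 against 57 reads (log2 2.95), 250 of the rdr6 reads being an 18 nt fragment from base 64 to base 81. Reads of 18 nt made up 7.469%, 9.028% and 3.039% of all mapped reads in rdr6, 2X and 1X. AtsnoR32-2 (AT4G06010) had 100 against 16 (log2 2.97) but only 5 reads of 1 location in rdr6 and none in 1X, and AtsnoR23-1 (AT3G04165) had 145 against 35 (log2 2.38). The remaining higher members were Z43 (214 against 63 reads), AtsnoR146 (58 against 36), AtsnoR91 (38 against 17), AtsnoR23-2 (43 against 19) and AtsnoR23-3 (42 against 19). None of the 9 is among the 10 members with most reads in 1X.

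The second round of depletion was a technical comparison within Col-0. Of 273 members tested, 85 were at least 2-fold lower and 48 at least 2-fold higher in 2X than in 1X, against 13.1% lower and 19% higher of 23160 genes. The median log2 ratio of 2X to 1X was -0.31, with 162 members below 0 and 111 above, against 0.75 over all genes, 0.79 over snRNA genes and 1.77 over tRNA genes. Scaled by the median of ratios, a shift of 0.75, 138 members were lower and 11 higher (20.4% and 3.2% over all genes). The median was -0.050 with each sequence counted once and 0.031 with reads wholly inside the gene, so its sign depends on the way of counting. With reads of 1 location, 87 of 254 were lower and 33 higher (5.97% and 17.5% over all genes). C/D-like members had a median of -0.55 (42 lower and 15 higher of 119), H/ACA-like members of 0.36 (7 lower and 19 higher of 63), which is below 0 with median-of-ratios scaling, and the others of -0.59 (36 and 14 of 91).

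The members named here that fell most had most of their 1X reads in the 5′ part. Not all members with such reads fell: AT3G47348, with 95.3% of its 1X reads at the start, was called higher (log2 1.32). AtsnoR4a, with 93.4%, was not called (log2 -0.60). AT2G17295 had 37 sense reads in 2X against 3654 in 1X (log2 -7.05, -7.55 to -6.58), almost all of several locations, and its near copy AT2G05765 had 301 against 5757 (log2 -4.68). snoR119 had 267 against 8490 (log2 -5.41), AtsnoR12-1b (AT4G07625) 182 against 3047 (log2 -4.49), AT3G47347 970 against 14007 (log2 -4.27) and snoR149 1004 against 14174 (log2 -4.24). In contrast, AtsnoR94 (AT3G05715) had 1376 reads in 2X against 158 in 1X (log2 2.70), snoR161 (AT3G03445) 789 against 90 (log2 2.71) and AtsnoR106b (AT5G02575) 627 against 95 (log2 2.30). AT4G39361 had the highest ratio, 752 against 53 (log2 3.41). There 314 of the 2X reads were a 15 nt fragment from base 107 to 1 base past the end, a length below the shortest read of the 1X library, and with reads of 1 location the counts were 84 and 38 (log2 0.72, no call).

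Splitting each member's reads by where they begin separated the libraries more sharply than total counts. Reads with the 5′ end within 2 bases of the annotated start amounted to 8316 RPM in rdr6 dsRNA, 3301 in 2X and 23500 in 1X, or 49.2%, 19.1% and 64.9% of sense reads. All other sense reads amounted to 8586, 13980 and 12710 RPM. A read of several locations enters these sums in every member that lists it, so 281793 distinct reads in 1X gave 372745 sense counts. The 12 AtsnoR43 genes held 101161 of these counts, of which 15964 came from reads of 1 location. The median member had 15.3%, 5.93% and 19.1% of its reads at the start, so the sums are led by members with many reads. The start reads of the full 38 nt, in which no adaptor was reached, stood at 3307, 368 and 12010 RPM and the shorter ones at 5009, 2933 and 11490. Thus, in these sums, 1X was above both other dsRNA libraries in each kind of start read. Outside the start 2X, scaled by mapped reads, was not below 1X. U3D and U3B, with no reads at the annotated start, weigh on the sums outside it. They had 2106 and 1762 RPM in 2X against 1083 and 908.6 RPM in 1X. Only 61.77% of the annotated bases of U3D and 31.2% of those of U3B were covered in 1X. The annotated start of these genes may thus not be the 5′ end of the RNA, which was not tested. Reads from that end would count as outside the start. The sums outside the start were not taken without them or with reads of 1 location.

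**Figure D2:**
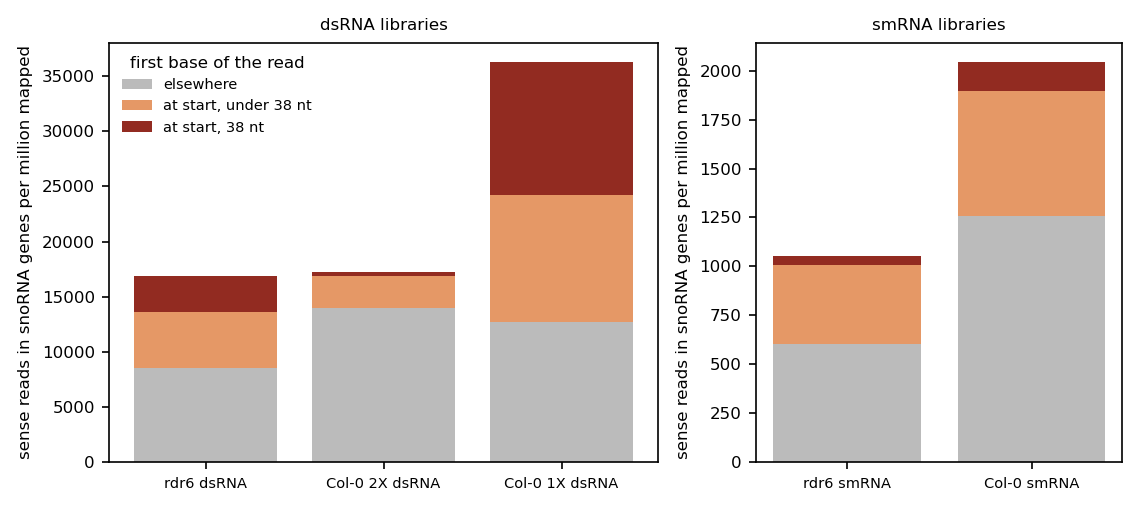
Sense RPM in snoRNA genes, in the 3 dsRNA libraries (left) and the 2 smRNA libraries (right). A read of several locations is counted in every member that lists it. Bars are stacked by whether the read begins within 2 bases of the annotated start and, if so, whether it has the full 38 nt. Reads elsewhere stand at 8586 (rdr6), 13980 (2X) and 12710 (1X) RPM, and the start reads account for most of the height of the 1X bar.

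Per member, the log2 ratio of rdr6 to 1X had a median of -1.04 for start reads (184 genes, 163 below 0) and -0.51 for all other reads (264 genes, 211 below 0). Between 2X and 1X the medians were -1.84 (203 genes, 154 below 0) and 0.08 (271 genes, 124 below 0 and 147 above), the last of which is below 0 with median-of-ratios scaling. The lower level in rdr6 was therefore present in both kinds of read, at different sizes. Whether the way libraries were made or the genotype moved the start reads was not tested, as each condition has 1 library.

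Start reads were more frequent in C/D-like than in H/ACA-like members of the dsRNA libraries. They made up 56.5%, 31.6% and 74.6% of the sense reads of C/D-like genes in rdr6, 2X and 1X, against 10.1%, 8.50% and 10.7% in H/ACA-like genes. In smRNA they made up 43.11% in rdr6 and 35.05% in Col-0 for C/D-like genes, against 31.55% and 37.03% for H/ACA-like genes. These shares are pooled over reads. The median C/D-like member with at least 50 sense reads had 28.93%, 7.285% and 44.54% in rdr6, 2X and 1X dsRNA. The median H/ACA-like member had 1.65%, 2.279% and 3.226%. In rdr6 and Col-0 smRNA the medians were 38.07% and 42.97% (C/D-like) against 15.38% and 16.54% (H/ACA-like). The last 2 rest on 3 and 8 members. In AT3G47347 the 38 nt read that begins 1 base before the start numbered 927 in rdr6 and 11562 in 1X, 82.5% of that member's 1X reads, while the most frequent 2X read, with 189 copies, ran from base 58 to 1 base past the end. In snoR149 the read from base 1 to base 38 numbered 1694 in rdr6, 172 in 2X and 9682 in 1X. In snoR119 the same stretch numbered 1216 in rdr6 and 6898 in 1X, and the most frequent 2X read was a 16 nt fragment from base 60 to base 75 with 54 copies. All these 5′ fragments, printed above, contain TGATGA or, in snoR149, TGATGG. AtsnoR12-1b differed in that its 38 nt read began at base 9 (463 in rdr6, 2509 in 1X).

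**Figure D3:**
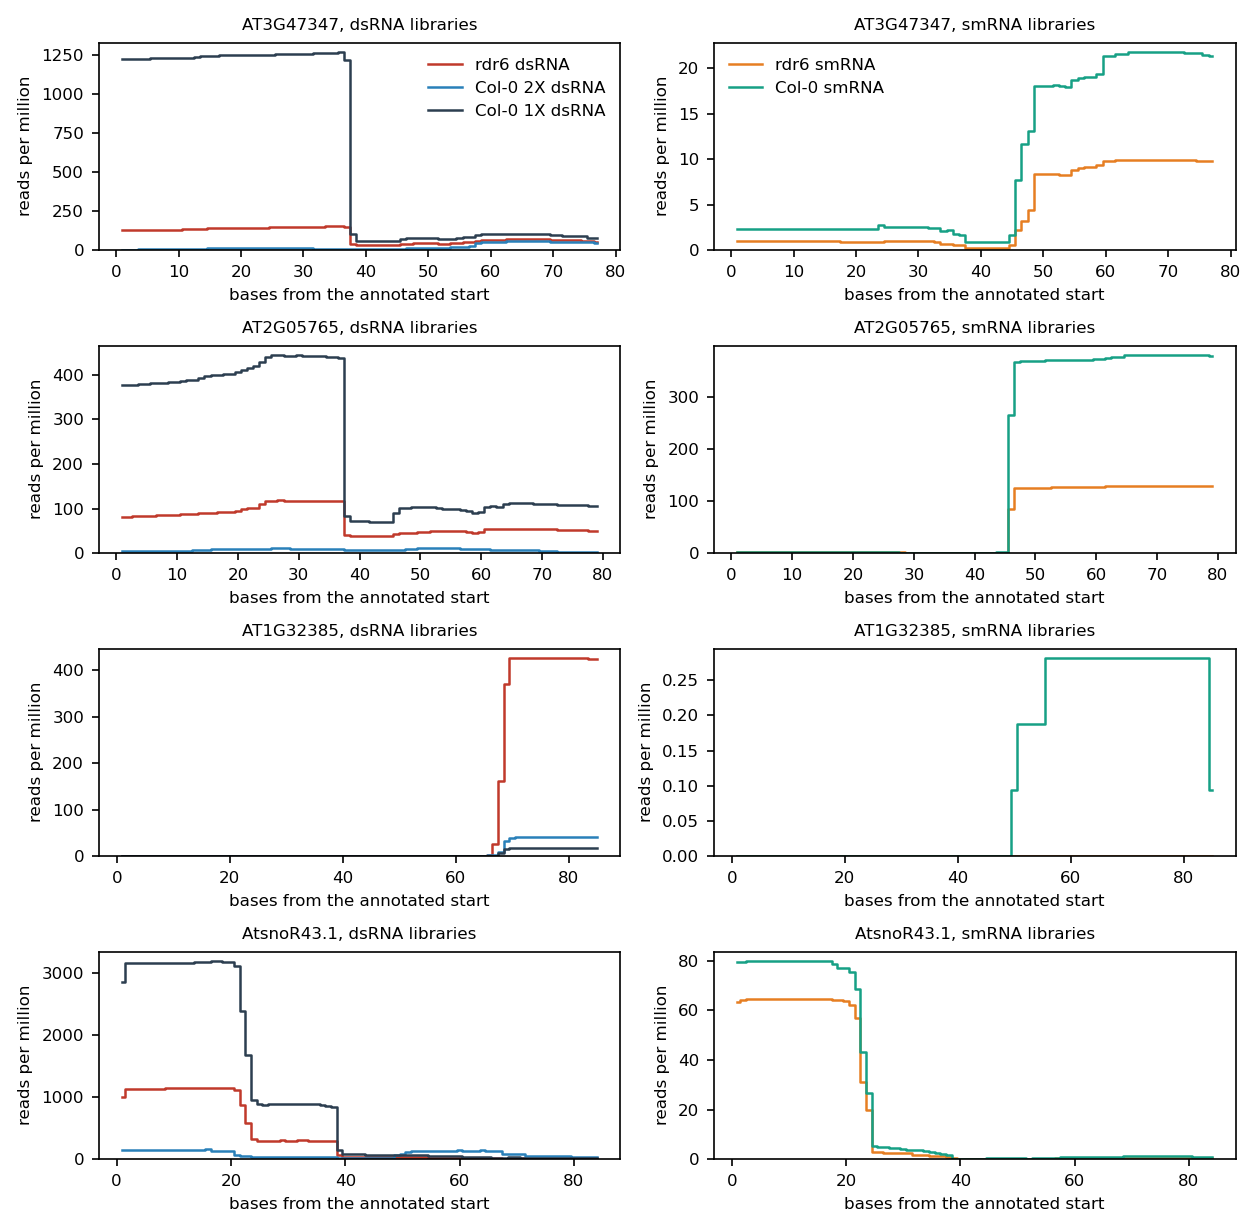
Sense coverage in RPM along AT3G47347, AT2G05765, AT1G32385 and AtsnoR43.1, by bases from the annotated start, in the dsRNA libraries (left) and the smRNA libraries (right). Each panel has its own linear scale. dsRNA coverage of AT3G47347 and AT2G05765 drops near base 38 in 1X and rdr6, where reads that begin at the start reach the 38 nt limit. This drop need not be an end of the RNA. The smRNA coverage of these genes lies in the 3′ part. Many 1X reads of AT2G05765 are listed at other locations too. AT1G32385 is covered in its last bases, and AtsnoR43.1 in its 5′ part in both kinds of library.

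Although a few positions dominate, most members were covered from end to end. Among members with at least 50 sense reads, 164 of 224 in rdr6, 185 of 248 in 2X and 192 of 245 in 1X dsRNA had every base covered. In smRNA the median member had 86.2% (rdr6, 49 genes) and 88.9% (Col-0, 93 genes) of its bases covered. Within a member, 5′ ends of reads peaked at the annotated start and 1 base before it, at 12.47% and 10.23% of reads in rdr6, 5.84% and 6.22% in 2X and 14.2% and 12.2% in 1X dsRNA on average. In smRNA the same positions held 16.8% and 16.2% in rdr6 and 19.6% and 15.4% in Col-0. The 3′ ends peaked at the annotated end and 1 base past it, with 10.99% and 8.51% of reads in rdr6 smRNA and 9.48% and 8.44% in Col-0 smRNA, against 5.48% and 5.20% in rdr6 dsRNA.

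**Figure D4:**
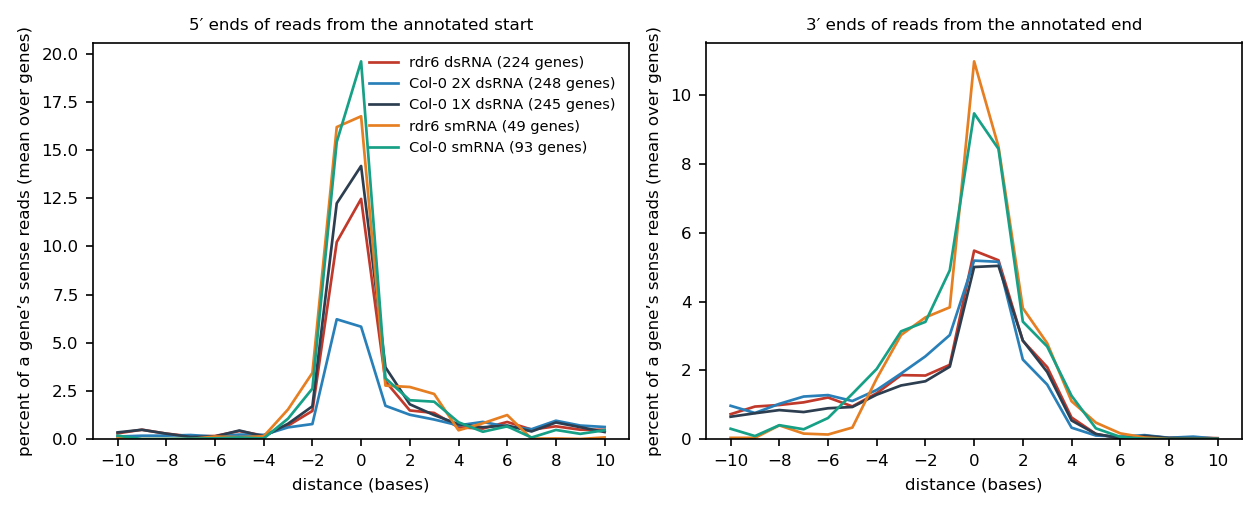
Mean share of a snoRNA gene's sense reads whose 5′ end lies at each distance from the annotated start (left) and whose 3′ end lies at each distance from the annotated end (right), in percent, over genes with at least 50 sense reads. All 5 libraries peak within 1 base of both annotated ends, and the 2X library has the lowest peak at the start.

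Members were also folded with RNAfold to compare coverage of bases predicted to pair, about 58% of them, with the other bases. The median log2 ratio of paired to unpaired coverage was 0.02 in rdr6, 0.11 in 2X and 0.02 in 1X dsRNA, and 0.13 and -0.00 in rdr6 and Col-0 smRNA. Members above 0 numbered 116 of 224, 145 of 248 and 127 of 245 in rdr6, 2X and 1X dsRNA, and 32 of 49 and 46 of 93 in rdr6 and Col-0 smRNA.

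In smRNA-seq, snoRNA genes were lower in rdr6 than in Col-0. Of 216 members tested, 68 were at least 2-fold lower and none was higher, against 4.32% lower and 0.756% higher of 10056 genes. At an unadjusted p under 0.05 with no fold limit, 1 member was higher and 142 were lower (23.7% and 22.2% over all genes). With each sequence counted once, 10 members were lower and none higher (1.86% and 0.339% over all genes), with a median log2 ratio of -0.71. The median log2 ratio was -0.96, with 203 members below 0 and 13 above, against 0.03 over all genes, -0.97 over snRNA genes and -0.79 over tRNA genes. With reads of 1 location, 46 of 168 were lower and none higher (3.11% and 1.22% over all genes). By class the medians were -0.92 (36 of 110 C/D-like members lower), -0.88 (8 of 33 H/ACA-like) and -1.06 (24 of 73 others).

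These reads did not have the lengths of typical small RNAs. Of the sense reads in snoRNA genes, 34.5% in rdr6 and 25.1% in Col-0 were 19 to 26 nt long, against 97.2% and 93.6% of all mapped reads. Reads of 27 to 37 nt made up 51.7% and 53.8%, and reads of the full 38 nt 12.7% and 18.9%. The 24 nt class, which in plants holds the small interfering RNAs that direct DNA methylation, was 8.66% and 5.45% of snoRNA reads, against 68.4% and 63.2% of the libraries. The lower level in rdr6 was present in reads of 19 to 26 nt alone, with a median log2 ratio of -0.81. In dsRNA, reads of 38 nt were 37.6% (rdr6), 17.9% (2X) and 51.0% (1X) of sense snoRNA reads, against 26.04%, 15.83% and 46.49% of all mapped reads.

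**Figure D5:**
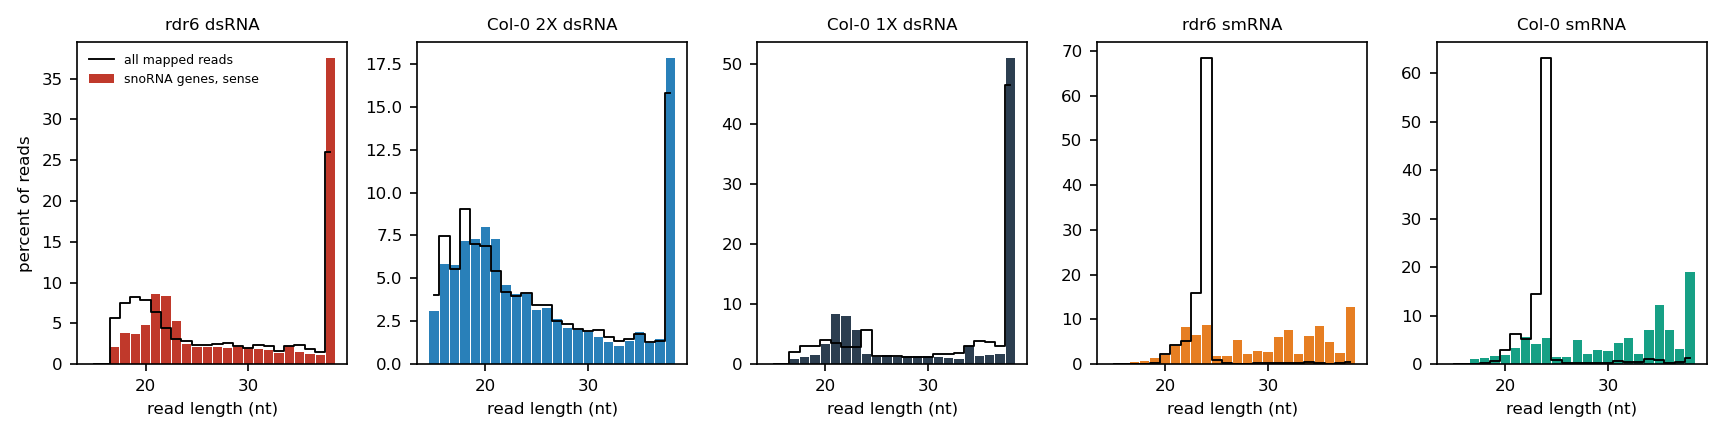
Length distribution of sense reads in snoRNA genes (bars) and of all mapped reads (line), in percent of reads, for each of the 5 libraries, each with its own vertical scale. In smRNA the line peaks at 24 nt with 68.4% (rdr6) and 63.2% (Col-0), whereas the bars spread to the 38 nt limit. The 38 nt bar of the 1X dsRNA library reaches 51.0%.

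smRNA reads came from the 2 ends of the snoRNA. In rdr6 and Col-0 smRNA, 42.6% and 38.3% of sense reads began at the annotated start and 36.8% and 41.3% stopped at the annotated end, within 2 bases. Only 2.17% and 2.05% were centred in the middle part of the gene, against 16.1%, 31.3% and 12.7% in rdr6, 2X and 1X dsRNA. Among members with at least 50 sense reads, the median share at the start was 37.5% in rdr6 and 42.97% in Col-0 smRNA. At the end it was 9.09% and 13.43%. The pooled shares at the end are thus led by members with many reads, such as AT2G05765. The median log2 ratio of rdr6 to Col-0 was -1.05 for start reads (107 genes, 99 below 0) and -1.01 elsewhere (171 genes, 159 below 0). The medians were thus nearly the same at both places, whereas the ratios of the summed reads were -0.80 and -1.06.

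Several members had reads from 1 end almost exclusively. AT2G05765, the member with most smRNA reads, had 1462 sense reads in rdr6 and 4095 in Col-0, of which 1459 and 4089 map to 1 location (log2 -1.55, -1.63 to -1.46). Of these, 90.6% and 91.5% ended at the annotated end, and its most frequent Col-0 read was a 35 nt fragment from base 46 to 1 base past the end, with 1873 copies. The dsRNA reads listed at AT2G05765 in 1X were mostly the 5′ fragment, with 3669 copies. Only 2123 of its 5757 sense reads in 1X map to 1 location. How many of the others came from its near copy AT2G17295 cannot be told. AtsnoR66, inside AT3G03435, had 488 reads in rdr6 and 831 in Col-0 (log2 -0.83, no call), 97.8% and 98.8% of them at the end. Its 27 nt read from base 41 to 1 base past the end made up 738 of the Col-0 reads. AtsnoR147 (AT1G05993) had 211 reads in rdr6 and 202 in Col-0 (log2 0.00, -0.28 to 0.29), all of them at the start, and 145 of the Col-0 reads ran from base 1 to base 32. AtsnoR43.1 had 725 and 865 (log2 -0.31), with 99.2% and 98.5% at the start and a most frequent Col-0 read of 22 nt. AT2G35744 differed in that its reads came from both parts: of 356 reads in rdr6 and 785 in Col-0 (log2 -1.20), 174 and 357 were the 38 nt fragment from base 38 to base 75, and 95 and 224 the 38 nt fragment that begins 1 base before the start.

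The largest decreases in smRNA among members with at least 100 reads were in AT3G47342 and AtsnoR19-2 (AT5G08860), which share nearly all reads and had 27 in rdr6 against 87 in Col-0 (log2 -1.75, -2.43 to -1.11). snoR133 (AT5G01195) had 121 against 353 (log2 -1.60) and AT1G74453 had 38 against 110 (log2 -1.59). The highest ratios were those of AtsnoR43.9 (AT1G06673, 88 against 83, log2 0.03), AtsnoR43.10 (785 against 741, log2 0.02), AtsnoR147 and AT3G47348 (48 against 53, log2 -0.20), none of which was called. snoR149 had 14 reads in rdr6 against 55 (log2 -2.03, -2.99 to -1.17).

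Antisense reads were few. Members with at least 1 numbered 79, 38 and 45 in rdr6, 2X and 1X dsRNA and 64 and 69 in rdr6 and Col-0 smRNA, and those with at least 10 numbered 9, 8, 6, 4 and 7 in the same order. Antisense reads made up 0.572%, 3.08% and 0.0654% of snoRNA reads in rdr6, 2X and 1X dsRNA and 8.45% and 4.05% in rdr6 and Col-0 smRNA. Without AtsnoR43.10, AtsnoR43.9 and AtsnoR148 the shares were 0.238%, 0.106% and 0.0405% in dsRNA and 2.14% and 1.57% in smRNA. AtsnoR43.10 (chr1:12083969-12084054, plus) had 692 antisense smRNA reads in rdr6 and 487 in Col-0, of which 587 and 427 map to 1 location, and 77.5% and 80.5% were of 24 nt. Its sense smRNA reads held 42.2% and 36.3% of 24 nt, far above the 8.66% and 5.45% of all members. The antisense reads lay at several places, led by bases 57 to 80 (110 reads in rdr6, 73 in Col-0) and bases 30 to 53 (86 reads in each library). The places of both are given here as the sequence of the strand opposite to the gene, read from the genome and in lower case throughout.
Opposite bases 57 to 80: agaagtgtggcaattttatctgag
Opposite bases 30 to 53: tcagaataatgcgaaggacccaac
AtsnoR43.10 is therefore a member with 24 nt reads of both strands, present in rdr6 and in Col-0 alike. AtsnoR43.9, another gene of this family on chromosome 1, had 153 antisense reads in rdr6 and 98 in Col-0, 59.5% and 67.3% of them of 24 nt. Only 54 and 45 of these antisense reads map to 1 location. AtsnoR148 (chr5:16975699-16975782, minus) had 461, 7265 and 43 antisense reads in rdr6, 2X and 1X dsRNA, 457, 7261 and 43 of them under 19 nt, and only 3, 6 and 1 map to 1 location. These short reads, nearly all listed at other loci as well, make up most antisense reads of the 2X library.

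Members of 1 cluster did not always have like levels. Some clusters were even, such as chr2:17923081-17923637, where 4 genes had 103 to 129 sense reads in 1X, and chr5:5674183-5674672, where 3 genes had 1496 to 1594. Others were not. In the cluster at chr3:17445266-17446047, which lies between genes, 6 snoRNA genes had from 248 to 14007 sense reads in 1X, a 56.5-fold range. AtsnoR88-2, AT3G47342, snoR136, AtsnoR64, AT3G47347 and AT3G47348 had 212, 375, 271, 318, 1772 and 205 reads in rdr6, 299, 2203, 2471, 425, 970 and 1349 in 2X, and 248, 727, 590, 569, 14007 and 405 in 1X. AT3G47347 thus stood far above its neighbours in 1X and rdr6 but not in 2X. The log2 ratios of rdr6 to 1X ran from -2.65 to 0.10 within this cluster and those of 2X to 1X from -4.27 to 1.65. In the cluster at chr4:18304891-18305704 the 1X reads of 5 genes ranged 60.2-fold, and in the cluster at chr1:10300351-10301021 36.1-fold, with rdr6 ratios between -0.96 and -0.67.

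Among the 13 genes listed for proteins of snoRNA particles, 11 were tested in rdr6 against 1X dsRNA, 1 was lower and none higher, with a median log2 ratio of -0.11 (5.25% and 14.2% over all genes). In 2X against 1X, 1 of 12 was lower and 4 were higher (median 0.65, with 13.1% and 19% over all genes), and in rdr6 against Col-0 smRNA 1 of 3 was lower and none higher (-1.25, with 4.32% and 0.756% over all genes). The lower one was FIB1 (AT5G52470) each time, which encodes the methyltransferase fibrillarin and holds the snoRNA gene U60.1F (AT5G52471) in an intron. U60.1F had 228 sense reads in rdr6, 110 in 2X and 989 in 1X dsRNA and 34 and 98 in rdr6 and Col-0 smRNA. Outside U60.1F, FIB1 had 71 reads in rdr6 against 130 in 1X (log2 -0.54), 267 in 2X against 130 (log2 0.62), and 0 in rdr6 smRNA against 1. The call on FIB1 therefore rested on its snoRNA. FIB2 (AT4G25630) holds U60.2F, with 13, 36 and 44 dsRNA reads in rdr6, 2X and 1X, and AT5G08180, listed for the H/ACA protein NHP2, holds AtsnoR100, snoR140 and AtsnoR100a, whose 1679, 6132 and 3525 reads make up most of its own.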

How the data were processed

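The 5 libraries were analysed 1 per condition. The counts deposited by the authors are raw reads per non-redundant sequence and location, not normalized. Reads had been collapsed and trimmed of the 3′ adaptor where it was found. They were aligned with cross_match to TAIR9 with mismatches allowed and all locations kept. A read without a found adaptor was given the length that aligned most often, so it can be listed below 38 nt. Genes were taken from TAIR10.1. All 3 snoRNA genes that the study's tables place on TAIR9 had the same position and strand there. Depths were 8193747 to 13773151 mapped reads.

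A read was counted at every location and assigned to a gene by its middle base. Counts were scaled by mapped reads. A call needed a ratio of at least 2, a p below 0.001 by the Audic–Claverie test (exact, one-sided) and at least 10 reads in both libraries together. Intervals of ratios are exact binomial (Clopper–Pearson) at 95%. Calls were tested on simulated counts drawn independently for each gene. These held no PCR copies or shared reads, so they do not give the error of calls in these data. Members and lists were chosen with earlier results of these data known. Named genes are the 8 with most sense reads in 1X, the 4 with the largest ratio each way per comparison (at least 100 reads), the 5 with most Col-0 smRNA reads, the 3 with most antisense reads and the 3 with most reads of 1 location in 1X, and others are named after their values were seen. Structures came from RNAfold 2.7.2, and all else from Python 3.11.15 with pandas 2.3.3, scipy 1.17.1 and matplotlib 3.10.9.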

Additional observations from a re-analysis of the deposited data

Results flagged for a closer look

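In 3 members antisense reads, which enter no comparison of sense reads, outnumbered sense reads. AT4G13245 had 28 antisense reads in rdr6 dsRNA against 5 sense reads, with 1 against 22 in 2X and 9 against 3 in 1X. AtsnoR148 (AT5G06305) had 461 antisense reads in rdr6 dsRNA and 7265 in 2X, against 351 and 131 sense reads, and nearly all were under 19 nt and of several locations. AtsnoR43.9 (AT1G06673) had 153 antisense reads in rdr6 smRNA and 98 in Col-0 smRNA, against 88 and 83 sense reads. Of the antisense reads, 54 and 45 map to 1 location.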

How the results depend on the processing

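No paired analysis was possible because no condition has more than 1 library, and for the same reason no replicate could be left out. Depth limits smRNA most, where only 49 members in rdr6 and 93 in Col-0 had 50 sense reads. Of 188 summary values, 72 moved by less than the limits set, 115 moved further and 1 reversed; of 508 values of named genes, 434 kept direction and call, 48 lost the call, 19 gained one and 7 reversed. The cause of these changes was not tested.

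Members lower and higher and the median log2 ratio changed as follows. For rdr6 against Col-0 dsRNA they were 129, 5 and -1.0 with median-of-ratios scaling, 159, 5 and -1.16 with totals without rRNA and tRNA genes, and 28, 4 and -0.59 with each sequence counted once. A fold limit of 4 gave 9 and 5, a minimum of 100 reads gave 5 higher, and the 2X library as reference gave 52 higher and a median of -0.31. For 2X against 1X they were 138, 11 and -1.06 with median-of-ratios scaling, 28, 21 and -0.050 with each sequence counted once, and 46 and 12 with a fold limit of 4. For smRNA, lower members were 42 (median -1.13) with a minimum of 100 reads, 10 (-0.71) with each sequence counted once, 10 with a fold limit of 4 and 43 (-0.87) with reads under 38 nt. The medians were -0.32, -0.95 and -0.81 in the length windows (at least 30 nt in dsRNA, 19 to 26 nt in smRNA), and the dsRNA medians were -0.84 and -0.051 with reads under 38 nt. The choices of 2X as reference and of reads under 38 nt were made after seeing the data. With reads wholly inside the gene the median was -1.06 in smRNA and reversed to 0.031 in 2X against 1X, where AT2G35742 (2.10), AT2G35744 (0.30), AtsnoR43.9, AT1G06673 (-1.11), and AtsnoR66, AT3G03425 (2.34), reversed too. With reads of 1 location, AtsnoR43.1, AT1G04527 (0.34), AtsnoR4a, AT1G06237 (1.64), and AtsnoR43.9 (-2.74) reversed in 2X against 1X.

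With each sequence counted once, the log2 ratio of sense to antisense was 6.95 (rdr6 dsRNA), 7.58 (2X), 8.42 (1X), 3.96 (Col-0 smRNA). The share of mapped reads was 1.76% (rdr6 dsRNA), 2.35% (2X), 2.64% (1X), 0.101% (rdr6 smRNA), 0.166% (Col-0 smRNA). The 38 nt share was 31.3% (rdr6 dsRNA), 15.4% (2X), 35.6% (1X). The 19 to 26 nt share was 29.1% (Col-0 smRNA). The median coverage of a gene was 94.0% (Col-0 smRNA). The share at the start was 22.6% (rdr6 dsRNA), 10.6% (2X), 26.3% (1X), 38.4% (rdr6 smRNA), 37.6% (Col-0 smRNA). The share at the end was 14.1% (rdr6 dsRNA), 11.1% (2X), 13.3% (1X), 30.3% (rdr6 smRNA), 32.5% (Col-0 smRNA). The share in the middle part of a gene was 28.8% (rdr6 dsRNA), 35.9% (2X), 29.8% (1X), 4.50% (rdr6 smRNA), 4.40% (Col-0 smRNA). With reads of 1 location, the log2 ratio of sense to antisense was 8.51 (rdr6 dsRNA), 10.92 (2X), 10.89 (1X), 3.53 (rdr6 smRNA), 4.82 (Col-0 smRNA). The share of mapped reads was 0.916% (rdr6 dsRNA), 0.830% (2X), 1.94% (1X), 0.0791% (rdr6 smRNA), 0.155% (Col-0 smRNA). The 38 nt share was 46.9% (rdr6 dsRNA), 15.47% (2X), 66.2% (1X). The 19 to 26 nt share was 20.3% (rdr6 smRNA), 15.49% (Col-0 smRNA). The share at the start was 41.1% (rdr6 dsRNA), 20.8% (2X), 58.2% (1X), 30.8% (rdr6 smRNA), 29.9% (Col-0 smRNA). The share at the end was 18.02% (rdr6 dsRNA), 14.9% (2X), 10.5% (1X), 47.4% (rdr6 smRNA), 49.6% (Col-0 smRNA). The share in the middle part of a gene was 16.5% (rdr6 dsRNA), 21.3% (2X). With reads wholly inside the gene, the log2 ratio of sense to antisense was 6.83 (rdr6 dsRNA), 4.64 (2X), 9.92 (1X), 2.45 (rdr6 smRNA), 3.56 (Col-0 smRNA). The share of mapped reads was 0.909% (rdr6 dsRNA), 1.11% (2X), 1.86% (1X), 0.0518% (rdr6 smRNA), 0.0888% (Col-0 smRNA). With a tolerance of 5 bases at the ends, the share at the start was 51.6% (rdr6 dsRNA), 21.7% (2X), 66.7% (1X), 45.6% (rdr6 smRNA), 41.2% (Col-0 smRNA). The share at the end was 17.7% (rdr6 dsRNA), 16.9% (2X), 10.97% (1X), 45.4% (rdr6 smRNA), 51.1% (Col-0 smRNA). With at least 5 reads per covered base, the median coverage of a gene was 99.0% (rdr6 dsRNA), 99.3% (2X), 63.8% (rdr6 smRNA), 73.4% (Col-0 smRNA).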
